A study of Homo sapiens with 16 samples.

Results

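SW620 cells carrying a hairpin against ATF4 (shATF4) were compared with SW620 cells carrying a scrambled hairpin (shScramble), both after 48 h in 5 µM 5-fluorouracil (5-FU). SW620 is an established human colorectal cancer cell line, and 5-FU is a fluorinated uracil given against that cancer. The comparison rests on 4 of the 16 RNA sequencing libraries of the series, 2 per line, which were chosen by their titles. Of the 58735 genes in the deposited count table, 17309 passed a filter on low counts and were tested. The other 12 libraries were untreated cells of the 2 lines (3 libraries each) and cells after 24 h in the same dose (3 libraries each). They entered the same model, where they help to estimate the spread and give the same comparison in the other states.

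Several features of the design limit the comparison. The titles and the design text place the 4 libraries at 48 h, whereas their treatment tag reads 24 h; the titles were followed. The labels name a single line per hairpin and do not say whether it is a clone, so loss of ATF4 and any other difference between the 2 lines cannot be told apart. Separate cultures are not stated either, so every p-value measures the spread between these libraries, which may be technical. In RNA from whole cultures, fewer cells of a kind and less RNA per cell cannot be told apart.

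ATF4 is a transcription factor of the integrated stress response. When a kinase phosphorylates the initiation factor eIF2, most translation slows while the ATF4 message is translated more, and ATF4 then drives genes of amino acid synthesis and uptake, transfer RNA charging, redox defence and, under lasting stress, the death-linked factor DDIT3. 5-FU inhibits thymidylate synthase and is also incorporated into RNA and DNA, and cells under it can meet both nucleotide and ribosomal stress.

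Total counts ran from 14571611 to 17824188 over the 16 libraries, and from 14920653 to 16075877 over the 4 at 48 h. Levels are in CPM, the counts of a gene relative to the TMM-scaled library size, and a change is the log2 ratio of shATF4 over scramble, with its standard error (SE). A gene was called at a Benjamini-Hochberg adjusted p under 0.05 in edgeR's quasi-likelihood test over all genes. The 2 libraries of a group differed by 2.35 (scramble) and 5.43 (shATF4) chi-square units per gene, where counting alone gives about 1, so neither pair is a library counted a second time. Among the other libraries, scramble untreated library 2 and shATF4 24 h library 3 stood apart from their groups, with up to 14.2 and 28.2 units.

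ATF4 itself (chromosome 22, 39519695 to 39522685 on GRCh38, plus strand) was measured at 331 and 333 CPM in the 2 scramble libraries at 48 h and at 114 and 118 CPM in the 2 shATF4 libraries. The groups did not overlap, which with 2 libraries per group adds little support for any gene. The log2 change was -1.52 (SE 0.11, adjusted p 1.62e-08), a level 2.86-fold lower. ATF4 was also lower in the knockdown line in untreated cells (-1.13, adjusted p 6.42e-08) and at 24 h (-1.34, adjusted p 2.70e-09). The knockdown at 48 h did not pass the test for a difference from that in untreated cells (difference -0.39, adjusted p 0.14) or at 24 h (-0.18, adjusted p 0.46).

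After 48 h of 5-FU, 1636 genes were called between the lines, 9.45% of those tested. Of these, 678 (3.92%) were higher in shATF4 cells and 958 (5.53%) were lower. At least a 2-fold change was seen in 260 of them, with 73 higher and 187 lower. The median log2 change over all tested genes was 0.002, close to 0. An unadjusted p under 0.05 was reached by 3953 genes.

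The number called depended on the libraries. It was 600 without scramble library 2 at 48 h, 602 without scramble library 1, 789 without shATF4 library 1 and 743 without shATF4 library 2, when a lone library is assumed to vary like the other groups. Without shATF4 24 h library 3 it was 2463, and without that library and scramble untreated library 2 it was 3021, and each of the 1636 genes was still called there. In the authors' deposited table, 1702 genes had an adjusted p under 0.05 for the same comparison, and 1277 of them were called here in the same direction. By the rule for naming genes, 137 of the genes described are called at 48 h. Of these, 59 kept their call under every alternative setting run, and the other 78 lost it when at least 1 of the 4 libraries at 48 h was left out. For gene lists, counts with each of these libraries left out in turn are given in the order scramble library 1, scramble library 2, shATF4 library 1, shATF4 library 2. Every count of list members called at 48 h is to be read against the shares over all tested genes, 3.92% higher and 5.53% lower.

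**Figure D1:**
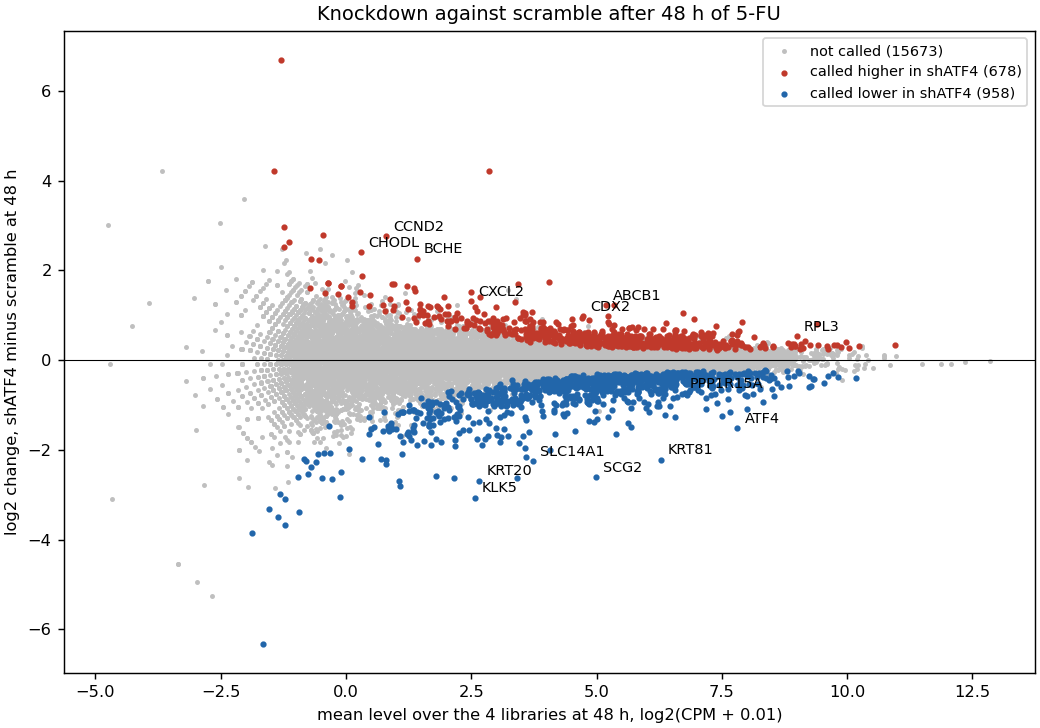
Log2 change between the lines at 48 h (vertical axis) against the mean level over the 4 libraries (horizontal axis, log2 of CPM plus 0.01), 1 point per tested gene, with called genes in red (higher in shATF4) and blue (lower). Genes called lower reach past a change of -2 at moderate levels, where KRT20, SCG2, KRT81 and KLK5 lie, while CCND2, CHODL and BCHE lie above a change of 2 at low levels.

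The decreases described first are in genes of different functions. SCG2, which encodes the granule protein secretogranin II, was at 53.2 and 55.3 CPM in the scramble libraries and at 9.22 and 8.58 CPM in the shATF4 libraries. The scramble values were both above both shATF4 values (change -2.61, SE 0.17, adjusted p 6.98e-09). KRT20, a keratin of differentiated colon surface cells, was at 11.6 and 10.3 CPM against 1.65 and 1.75 CPM (change -2.68, SE 0.21, adjusted p 7.12e-08). KRT81, a hair keratin, was at 125 and 130 CPM against 24.8 and 30.0 CPM (change -2.22, SE 0.12, adjusted p 7.61e-10). KRT81 overlaps KRT86 in the table, and reads of the 2 genes may be mixed. SCEL, a protein of the cornified envelope, was at 18.1 and 18.6 CPM against 2.85 and 3.11 CPM (change -2.62). SLC14A1, a urea transporter, was at 23.01 and 20.7 CPM against 4.28 and 4.86 CPM (change -2.25). PRSS36, a serine protease, was at 19.7 and 19.4 CPM against 3.57 and 5.19 CPM (change -2.16, adjusted p 5.09e-07). Each of these 6 genes kept its call under every alternative. None had overlapping groups, but that was a condition for naming genes by the size of their change, so it adds no support. Less abundant genes also fell: PLA2G2A, a secreted phospholipase, by 2.80 on the log2 scale, CACNA1E, a calcium channel subunit, by 2.69, and CYP11A1, the enzyme that cuts the cholesterol side chain, by 1.76.

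The kallikreins, a cluster of secreted serine proteases on chromosome 19, were lower in all 5 tested members of the 6 listed, with a list median of -1.31. KLK5 was at 10.45 and 10.7 CPM in scramble cells and at 0.99 and 1.53 CPM in shATF4 cells (change -3.06, SE 0.31, adjusted p 1.04e-05). The gene was near silent outside 48 h, with 0 counts over the 3 untreated scramble libraries and 9 over the 3 at 24 h, against 361 counts over the 2 at 48 h. KLK7, which KLK5 is known to activate in skin, was at 7.47 and 7.75 CPM against 1.21 and 1.26 CPM (change -2.62). KLK10 was at 44.96 and 47.0 CPM against 17.5 and 19.5 CPM (change -1.31), and KLK6 at 134 and 136 CPM against 76.8 and 86.4 CPM (change -0.72, adjusted p 1.00e-04). KLK11 (4.85 and 5.28 CPM against 1.98 and 2.29 CPM, change -1.24, adjusted p 0.043) lost its call without any 1 of the 4 libraries (adjusted p 0.16, 0.22, 0.23 and 0.16). It also lost it in DESeq2 (adjusted p 0.057) and without library 1 of untreated scramble (0.052), 24 h scramble (0.055) or untreated shATF4 cells (0.0502), so 4 kallikreins stayed called with each 48 h library left out.

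The largest increases were in genes at low levels. CCND2, which encodes cyclin D2, a partner of the G1 kinases, was at 0.58 and 0.29 CPM in scramble cells and at 3.18 and 2.84 CPM in shATF4 cells (change 2.76, SE 0.45, adjusted p 3.79e-04). BCHE, a serum-type cholinesterase, was at 0.99 and 0.82 CPM against 4.99 and 3.77 CPM (change 2.26), and CHODL, a membrane lectin, at 0.18 and 0.59 CPM against 1.87 and 2.24 CPM (change 2.41). The change of CHODL was 1.80 without scramble library 1 and 3.50 without scramble library 2, and it stayed called. The authors' deposited table gives CHODL an adjusted p of 1. DEFA5, an antimicrobial peptide of Paneth cells, was higher at a moderate level, with 5.08 and 5.05 CPM against 17.5 and 15.5 CPM (change 1.70, adjusted p 1.44e-05). OR2I1P had a change of 1.75 (7.94 and 7.16 CPM against 26.3 and 24.4 CPM), and it overlaps GABBR1, so reads may be mixed. SSTR1, a somatostatin receptor, was at 1.34 and 1.17 CPM against 4.83 and 2.84 CPM (change 1.60). BOLA2B, which has near-identical copies, had a fitted change of 4.22 that came from a lone library: shATF4 library 1 was at 27.2 CPM and shATF4 library 2 at 0.33 CPM, against 0.93 and 0.53 CPM in scramble cells. Without shATF4 library 1 its change was -1.13 (adjusted p 0.60), and without scramble library 1 or 2 the adjusted p was 0.082 or 0.12.

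Among called genes that do not encode proteins, LINC01315 was higher (change 1.40), and LINC02404 (-1.38), GAS6-DT (-1.11) and LINC00649 (-0.72, overlapping ATP5PO) were lower. RPL3P4, a pseudogene of RPL3, was higher by 0.94, and RPL3 by 0.54; near-identical copies can share reads.

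Of 20 tested stress factors and targets linked to ATF4, none was called higher and 5 were called lower, with a list median of -0.30 against 0.002 over all genes (5, 2, 3 and 3 lower with each library left out). STC2, a secreted glycoprotein of the stress response, was at 59.2 and 58.7 CPM in scramble cells and 37.8 and 34.3 CPM in shATF4 cells (change -0.71, SE 0.11, adjusted p 2.01e-04). DDIT3 (CHOP), the factor linked to death under lasting stress, was at 18.3 and 18.7 CPM against 9.93 and 11.3 CPM (change -0.81, SE 0.15, adjusted p 0.0018). DDIT3 overlaps MARS and MBD6 in the table. TRIB3, a pseudokinase induced by ATF4 and DDIT3, was at 87.8 and 90.9 CPM against 60.8 and 66.3 CPM (change -0.49, adjusted p 0.0037). VEGFA, the angiogenic growth factor, had a change of -0.53, and ADM2, a peptide hormone, of -1.07. Each of these 3 calls was lost when certain libraries at 48 h were left out in turn. Without scramble library 2 the adjusted p was 0.054 for TRIB3, 0.18 for VEGFA and 0.22 for ADM2; without shATF4 library 1 it was 0.069 for TRIB3 and 0.066 for ADM2, and without shATF4 library 2 it was 0.15 for VEGFA and 0.17 for ADM2. CHAC1, which degrades glutathione and is a direct target of ATF4, had a change of -0.36 and did not pass the test (adjusted p 0.20), nor did DDIT4, an inhibitor of mTORC1 (-0.63, adjusted p 0.083). DDIT4 passed in 7 of 24 alternative settings, among them DESeq2 (adjusted p 0.046), no filter on low counts (0.0098) and a fit of the 4 libraries at 48 h alone (0.0090).

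PPP1R15A (GADD34), the phosphatase subunit that reverses eIF2 phosphorylation, was at 127 and 135 CPM in scramble cells and 76.1 and 79.7 CPM in shATF4 cells (change -0.75, SE 0.09, adjusted p 9.73e-06). It was the only call among 12 tested eIF2 kinases and phosphatase subunits. EIF2AK3 (PERK), an eIF2 kinase of the endoplasmic reticulum, had a value of -0.11 (adjusted p 0.73). Of 20 chaperones and unfolded protein response genes, 1 was called higher, where 3.92% of all genes were (0, 0, 1 and 0 with each library left out).

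Of 15 enzymes of serine, one-carbon and non-essential amino acid synthesis, 3 were higher and none was lower (median 0.08; 2, 1, 3 and 1 higher with each library left out). PHGDH, the first enzyme of serine synthesis, was at 61.7 and 63.2 CPM in scramble cells and 61.3 and 67.3 CPM in shATF4 cells, so the groups overlapped (change 0.04, SE 0.10, adjusted p 0.85). ASNS, asparagine synthetase, was at or near 1 CPM in all 4 libraries (0.93, 0.82, 0.82 and 1.09 CPM). SHMT1, a serine to glycine enzyme, was higher by 0.40 (64.9 and 64.4 CPM against 83.4 and 87.0 CPM, adjusted p 0.0037), and it overlaps SMCR8. SHMT2, its mitochondrial relative, was higher by 0.34, with an adjusted p of 0.092 without scramble library 2 and 0.096 without shATF4 library 2.

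Of 15 amino acid transporters, 4 were lower and 1 was higher (3, 2, 3 and 2 lower and 0, 0, 1 and 0 higher with each library left out). SLC38A2, a carrier of small neutral amino acids, was at 561 and 539 CPM against 401 and 338 CPM (change -0.57, SE 0.10, adjusted p 6.81e-04). SLC7A11, which imports cystine for glutathione, was at 15.01 and 13.6 CPM against 8.40 and 6.88 CPM (change -0.90, adjusted p 0.0037), with an adjusted p of 0.056 without scramble library 1 and 0.073 without shATF4 library 2. Among transfer RNA synthetases, 2 of 12 linked to ATF4 were lower and 1 was higher, while 2 of 8 others were higher. With each library left out, 0, 0, 0 and 1 of the former were lower and none was higher, and 0, 1, 2 and 0 of the latter were higher.

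**Figure D2:**
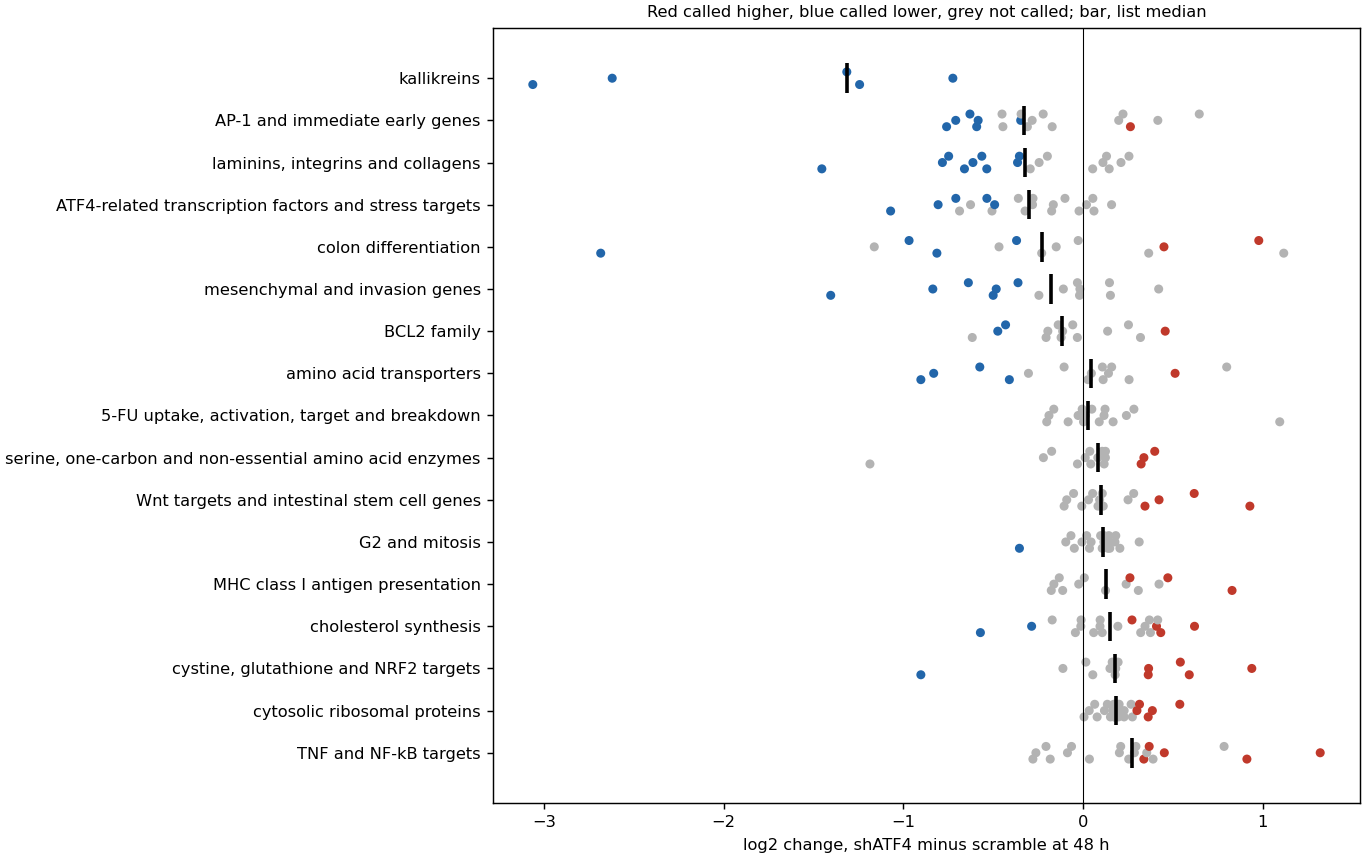
Log2 change between the lines at 48 h for each tested member of 17 of the 38 gene lists, picked without a set rule. Each gene is 1 point, red where called higher, blue where called lower and grey where not called, and the black bar is the list median. Lists not shown include clustered histone genes (median 0.48, 13 of 13 tested above 0) and mitochondrially encoded proteins (median -0.16, 13 of 13 below 0). The kallikreins all lie below 0, AP-1, laminin and ATF4-linked lists have medians near -0.3, and the TNF and NF-kB list has a median of 0.27.

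Of 18 laminins, integrins and collagens, 9 were called lower and none higher, against 5.53% and 3.92% of all genes, and 6 of the 18 had a change above 0 (median -0.32; 5, 5, 7 and 6 lower with each library left out). LAMA3 and LAMB3 encode chains of a laminin that anchors epithelium. LAMA3 was at 311 and 316 CPM against 179 and 186 CPM (change -0.78, SE 0.09, adjusted p 5.60e-06) and LAMB3 at 288 and 291 CPM against 176 and 203 CPM (change -0.61). ITGA6, a subunit of the receptor for that laminin, was at 284 and 280 CPM against 184 and 173 CPM (change -0.66), and ITGA2, a collagen receptor subunit, at 74.5 and 65.1 CPM against 44.6 and 38.5 CPM (change -0.75). This list holds long genes (median length 7752 bp, against 4244 bp over all tested genes). In the longest of 5 equal classes of gene length 270 genes were lower and 129 higher, and the medians of the 5 classes lay between -0.013 and 0.009; the part of length in these calls was not tested.

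The matrix and invasion genes gave 6 lower and none higher of 14 (median -0.18; 3, 4, 3 and 5 lower with each library left out). TNC, tenascin C, was at 181 and 190 CPM against 106 and 102 CPM (change -0.84, adjusted p 1.40e-06). The list also holds CDH1, E-cadherin, the adhesion protein that epithelia lose in a mesenchymal transition, which was lower too (370 and 379 CPM against 243 and 238 CPM, change -0.64). FN1, fibronectin, and VIM, the mesenchymal filament vimentin, were not called, with values of -0.03 and -0.25 (adjusted p 0.89 and 0.15). VIM did pass in a fit of the 4 libraries at 48 h alone (adjusted p 0.043) and without shATF4 24 h library 3 (0.028). It also passed without both libraries that stood apart (0.012), and in no other alternative setting. The authors' deposited table gives VIM an adjusted p of 0.046. At 24 h the change of VIM was -0.74 (adjusted p 8.01e-06).

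AP-1 and immediate early genes gave 6 lower and 1 higher of 18 (median -0.33; 5 lower and none higher with any of the 4 libraries left out). FOSL1, an AP-1 subunit, was at 114 and 111 CPM against 72.4 and 77.8 CPM (change -0.58, adjusted p 4.14e-04), and FOSL2, its relative, at 99.5 and 95.0 CPM against 62.2 and 66.9 CPM (-0.59). DUSP5, a phosphatase of ERK, fell by 0.76 on the log2 scale, KLF6, a zinc finger factor, by 0.71, and MAFF, a small Maf protein that overlaps PLA2G6, by 0.63. EGFR, the receptor upstream of that pathway, was at 12.5 and 11.4 CPM against 4.83 and 5.03 CPM (change -1.28, adjusted p 0.0037); the adjusted p was 0.058 without scramble library 1.

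Promoters of the called genes were searched for 3 short motifs on both strands. RefSeq promoters on GRCh38.p14, from 250 bases before to 50 after the start, were matched to 11317 of the tested genes. TGATGNAA, the core of the element that ATF4 binds with C/EBP proteins, was in 18 of 694 promoters of genes called lower (2.59%), in 4 of 518 called higher (0.77%) and in 1.69% of all 11317. TGACGTCA, the palindromic cyclic AMP element, was in 1.73% of the lower, 3.86% of the higher and 3.06% of all promoters. TGACTCA, the AP-1 site, which was added after the data were seen, was in 51 of 694 promoters of lower genes (7.35%), in 12 of 518 of higher genes (2.32%) and in 3.32% of all. A match describes the letters only.

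Among the named genes kept for this listing, 17 held a match, of which 11 were called lower, 2 higher and 4 neither. The listing leaves out matches on part of the genome, so 17 may not be every named gene with a match. The 250 bases before the start are shown for 6 of the 17, picked with their changes known, to show how each motif reads in place; they do not stand for the shares above. Capitals mark the match; KLK6 and CHAC1 hold the ATF4 core (on the minus strand of the run in CHAC1), PPP1R15A and RPL3 the cyclic AMP element, LAMA3 and SCEL the AP-1 site. RPL3 was called higher, CHAC1 was not called, and the other 4 were called lower. Those of the 17 that are not shown are PIR (called higher), FN1, ASNS and SEMA3C (not called), and DDIT3, FOSL2, ITGA5, LINC02404, MAFF, PLK3 and SLC7A1 (called lower).
KLK6: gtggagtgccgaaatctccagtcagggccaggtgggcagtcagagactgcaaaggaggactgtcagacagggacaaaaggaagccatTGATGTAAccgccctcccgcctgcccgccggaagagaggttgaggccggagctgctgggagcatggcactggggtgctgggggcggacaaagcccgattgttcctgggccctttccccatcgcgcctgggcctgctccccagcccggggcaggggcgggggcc
CHAC1: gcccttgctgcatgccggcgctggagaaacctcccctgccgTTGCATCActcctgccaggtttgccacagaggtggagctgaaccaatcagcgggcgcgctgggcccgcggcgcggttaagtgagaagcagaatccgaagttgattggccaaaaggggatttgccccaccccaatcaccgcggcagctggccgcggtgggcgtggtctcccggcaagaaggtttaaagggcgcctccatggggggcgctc
PPP1R15A: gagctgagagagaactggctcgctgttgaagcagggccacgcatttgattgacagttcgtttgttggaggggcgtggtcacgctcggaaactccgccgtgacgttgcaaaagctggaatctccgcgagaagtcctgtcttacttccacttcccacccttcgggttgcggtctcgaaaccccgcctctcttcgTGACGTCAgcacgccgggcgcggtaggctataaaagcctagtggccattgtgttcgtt
RPL3: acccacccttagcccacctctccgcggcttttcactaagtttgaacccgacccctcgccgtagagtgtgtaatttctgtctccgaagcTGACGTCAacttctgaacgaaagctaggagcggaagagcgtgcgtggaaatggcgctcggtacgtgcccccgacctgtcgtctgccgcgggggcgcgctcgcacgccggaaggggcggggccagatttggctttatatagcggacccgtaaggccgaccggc
LAMA3: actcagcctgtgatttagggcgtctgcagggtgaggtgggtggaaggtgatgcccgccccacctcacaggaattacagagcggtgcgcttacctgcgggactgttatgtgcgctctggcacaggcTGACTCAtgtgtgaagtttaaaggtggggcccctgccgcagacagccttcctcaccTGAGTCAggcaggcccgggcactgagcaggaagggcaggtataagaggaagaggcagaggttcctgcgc
SCEL: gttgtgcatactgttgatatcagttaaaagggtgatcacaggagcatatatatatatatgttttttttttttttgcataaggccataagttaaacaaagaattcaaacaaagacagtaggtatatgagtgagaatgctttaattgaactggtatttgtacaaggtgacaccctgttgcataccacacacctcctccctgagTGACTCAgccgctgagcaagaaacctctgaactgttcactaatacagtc
LAMA3 holds the AP-1 letters at 2 places. The coordinates, on GRCh38.p14, are chr19:50969592-50969841 (minus strand) for KLK6, chr15:40953221-40953470 (plus) for CHAC1, chr19:48872171-48872420 (plus) for PPP1R15A, chr22:39319624-39319873 (minus) for RPL3, chr18:23872770-23873019 (plus) for LAMA3 and chr13:77535456-77535705 (plus) for SCEL. In the authors' table LAMA3 spans 23689443 to 23956222 on chromosome 18, so this start lies inside the gene's span.

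Of 20 tested TNF and NF-kB targets, 5 were called higher and none lower, against 3.92% higher and 5.53% lower over all genes; 14 had a change above 0 and 6 below it (median 0.27; 2, 2, 3 and 2 higher with each library left out). CCL20, a chemokine for lymphocytes and dendritic cells, was at 87.6 and 82.1 CPM against 173 and 147 CPM (change 0.91, SE 0.14, adjusted p 1.58e-04). CXCL2, a neutrophil chemokine, was at 3.21 and 3.23 CPM against 8.67 and 7.43 CPM (change 1.32, adjusted p 0.0026). TNFAIP3 (A20), a brake on NF-kB, had a change of 0.45 (adjusted p 0.0094), which was lost without scramble library 1 (0.075), scramble library 2 (0.084) or shATF4 library 2 (0.10). TNF itself was at 1.11 and 0.82 CPM against 1.54 and 1.80 CPM and did not pass the test (adjusted p 0.39). TAPBP, which loads peptides onto MHC class I, was at 55.9 and 65.2 CPM against 105 and 110 CPM (change 0.83, adjusted p 8.03e-04), 1 of 3 members called higher among 13 antigen presentation genes (2, 1, 2 and 1 with each library left out).

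Among death and drug response genes, BCL2L1 (BCL-XL), which blocks mitochondrial death, was at 408 and 406 CPM against 288 and 315 CPM (change -0.43, SE 0.07, adjusted p 3.86e-04). Against 5.53% lower and 3.92% higher over all genes, 2 of 14 members of the BCL2 family were lower and 1 higher (1, 2, 2 and 1 lower and none higher with each library left out). ABCB1 (P-glycoprotein), a drug export pump, was at 22.02 and 21.4 CPM against 53.02 and 49.01 CPM (change 1.23, SE 0.13, adjusted p 1.93e-06). None of 16 genes of 5-FU uptake, activation, target and breakdown was called in edgeR's test, and at most 1 was called in any alternative setting. TYMS, the enzyme that 5-FU inhibits, was at 46.0 and 44.3 CPM against 37.0 and 42.2 CPM (change -0.19, adjusted p 0.23), and DPYD, which degrades 5-FU, was under 1.2 CPM in all 4 libraries. CDKN1A (p21), the cell cycle inhibitor, was at 49.8 and 50.5 CPM against 47.0 and 47.8 CPM (change -0.08, adjusted p 0.81). Read against the same shares of all genes, 2 of 22 p53 targets were higher and 2 lower (none higher and 0, 0, 0 and 2 lower with each library left out). Of 20 genes of G2 and mitosis, 1 was lower (1, 0, 0 and 1), also against 5.53% of all genes.

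Of 14 genes of cystine, glutathione and NRF2, 5 were higher, and SLC7A11 was the lower member (2, 4, 4 and 4 higher with each library left out). GPX2, a glutathione peroxidase of the gut, was at 159 and 173 CPM against 233 and 267 CPM (change 0.59, adjusted p 3.69e-04); it overlaps CHURC1. PIR, an NRF2-regulated iron protein, was at 6.95 and 5.58 CPM against 11.03 and 13.004 CPM (change 0.94, adjusted p 3.97e-04). Of 27 ribosomal protein genes 5 were higher and none lower (median 0.18), and without the 2 libraries that stood apart 16 were higher. With each 48 h library left out 1, 1, 3 and 1 were higher. RPL3 was at 422 and 408 CPM against 602 and 603 CPM (change 0.54, SE 0.07, adjusted p 1.69e-05). Of 20 cholesterol synthesis genes 4 were higher and 2 lower (1, 2, 2 and 1 higher and 1, 1, 1 and 1 lower with each library left out).

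Colon identity genes went both ways. CDX2, the factor that specifies intestinal epithelium, was at 17.9 and 17.9 CPM against 34.8 and 35.6 CPM (change 0.98, SE 0.14, adjusted p 1.50e-04). VIL1, the brush border protein villin, was at 178 and 176 CPM against 241 and 242 CPM (change 0.45, adjusted p 3.88e-04). CEACAM1, an adhesion molecule, was lower (49.3 and 42.6 CPM against 23.5 and 23.4 CPM, change -0.97), as was KRT20. Of 13 tested differentiation genes 2 were higher and 4 lower, and of 16 Wnt and stem cell genes 4 were higher and none lower. With each library left out, 2 of the former were higher in each case and 3, 2, 2 and 4 lower, and 1, 3, 2 and 1 of the latter were higher. PROM1 (CD133), a marker of immature epithelium, was at 23.6 and 24.8 CPM against 37.7 and 36.7 CPM (change 0.62, adjusted p 0.0024).

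Markers of other cell types summed to lower levels than those of colon epithelium. Single genes did not all follow the sums. LUM was at 28.9 to 42.5 CPM and LYZ at 22.7 to 31.8 CPM over the libraries at 48 h. The epithelial marker GPA33 was at 0.71 to 1.76 CPM. The 8 colon epithelium markers summed to 7310 and 7491 CPM at the lowest and highest in scramble cells and 6503 and 6966 in shATF4 cells, led by KRT8 and KRT18. The 7 fibroblast markers summed to 55.9 to 57.5 against 59.2 to 66.0 CPM, mostly LUM and COL1A1, with COL3A1 at 0 in all 4 libraries. The 6 immune markers summed to 29.8 to 33.2 against 23.9 to 24.0 CPM, nearly all of it LYZ, with PTPRC at 3 counts in all. The 4 endothelium markers summed to 12.03 to 13.8 against 6.75 to 7.87 CPM, from VWF and PECAM1. The part of these markers in the results was not tested.

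The difference between the lines was then compared across states. At 24 h, 3533 genes (20.4%) were called between the lines, and in untreated cells 506 (2.92%). The 3 states use separate libraries. Of the 48 h calls, 598 were also called at 24 h, 36.6% of the 48 h calls and 16.9% of the 24 h calls, with 472 in the same direction and 126 in the opposite direction. With untreated cells 206 were shared (12.6% of the 48 h calls and 40.7% of the untreated calls), 187 of them in the same direction. Called in all 3 states in the same direction were 150 genes, 41 higher and 109 lower. CCND2 was higher by 2.59, 2.45 and 2.76 in untreated cells, at 24 h and at 48 h, and DEFA5 by 2.08, 2.51 and 1.70. SLC14A1 was lower in each, with changes of -1.11, -1.31 and -2.25. Across all tested genes the correlation of the 48 h change with that at 24 h was 0.16, and with that in untreated cells 0.15 (Pearson's r across 17309 genes, which are no independent replicates).

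Tested directly, the difference at 48 h departed from that in untreated cells in 475 genes (2.74%; 225 higher, 250 lower) and from that at 24 h in 1481 (8.56%; 742 higher, 739 lower). Without scramble 48 h library 2 these counts were 136 and 592, without scramble 48 h library 1 they were 173 and 658, and without shATF4 48 h library 1 they were 260 and 862. Without shATF4 48 h library 2 they were 178 and 788. Without shATF4 24 h library 3 the first was 991, and without that library and untreated scramble library 2 they were 1204 and 2441.

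**Figure D3:**
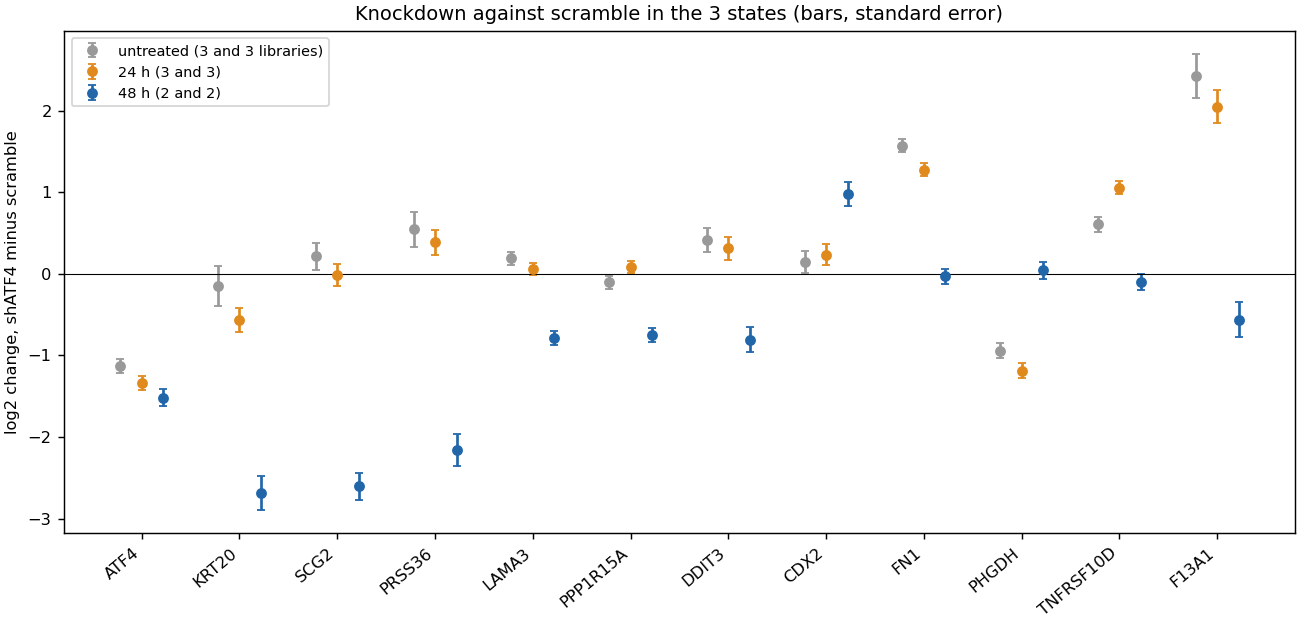
Log2 change between the lines in untreated cells (grey), at 24 h (orange) and at 48 h (blue) for 12 genes, with bars of 1 SE. ATF4 is lower in all 3 states, KRT20, SCG2, PRSS36, LAMA3 and PPP1R15A depart from 0 mainly at 48 h, and FN1, PHGDH and TNFRSF10D lie near 0 at 48 h.

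FN1, PHGDH, TNFRSF10D and F13A1 were called between the lines in untreated cells and at 24 h and were not called at 48 h. FN1, fibronectin, was at 120 to 132 CPM in untreated scramble cells and 365 to 374 CPM in untreated shATF4 cells (change 1.57, adjusted p 1.19e-10). At 24 h it was at 112 to 118 CPM against 249.1 to 323 CPM (change 1.28). At 48 h it was at 92.0 and 99.2 CPM against 93.5 and 93.6 CPM, so the groups overlapped (change -0.03, SE 0.10, adjusted p 0.89). The difference between states was -1.60 (adjusted p 4.82e-07) from untreated cells and -1.31 (adjusted p 4.44e-06) from 24 h. PHGDH was at 51.4 to 56.9 CPM against 26.3 to 30.9 CPM in untreated cells (change -0.94) and at 50.4 to 60.8 CPM against 23.6 to 25.1 CPM at 24 h (change -1.18), and the overlapping values at 48 h are given above. Its difference between states was 0.98 (adjusted p 3.38e-04) and 1.23 (adjusted p 1.48e-05). TNFRSF10D, a decoy receptor for the death ligand TRAIL, was higher by 0.61 in untreated cells and 1.06 at 24 h, and at 48 h had 73.6 and 80.3 CPM in scramble cells and 72.3 and 71.0 CPM in shATF4 cells, with no overlap (change -0.10, adjusted p 0.60). Its difference between 48 h and 24 h was -1.16 (adjusted p 2.28e-05); that between 48 h and untreated cells was -0.71 (adjusted p 0.0050, and 0.055 without scramble 48 h library 2). F13A1, a coagulation factor subunit, was higher by 2.43 and 2.05 in the earlier states and had a value of -0.56 at 48 h (6.42 and 7.46 CPM against 4.06 and 5.35 CPM, so the groups did not overlap, adjusted p 0.12), with a difference of -2.99 from untreated cells (adjusted p 7.70e-05).

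Of 322 genes called in untreated cells and at 24 h in the same direction, 150 (46.6%) were called at 48 h in that direction. Another 164 (50.9%) were not called at 48 h, and 8 were called in the opposite direction. For 51 of the 322 (15.8%) the difference between 48 h and untreated cells passed its own test. Over all tested genes, 9.45% were called at 48 h and 2.74% passed that difference. The 322 genes were chosen by their calls in untreated cells, and the untreated values enter the difference. Their share is therefore not free of that choice.

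Other genes differed between the lines mainly at 48 h. SCG2 was at 5.90 to 8.42 CPM against 7.26 to 8.54 CPM in untreated cells and at 20.5 to 23.8 CPM against 17.9 to 27.6 CPM at 24 h, with overlap in both states. Its difference between states was -2.82 (adjusted p 5.82e-07) from untreated cells and -2.59 (adjusted p 6.36e-07) from 24 h. KRT20 was at 1.33 to 1.54 CPM against 1.11 to 1.65 CPM in untreated cells and at 10.0 to 13.3 CPM against 7.17 to 8.15 CPM at 24 h (change -0.56, adjusted p 0.0093, and 0.059 without scramble 24 h library 2). At 48 h the shATF4 level of KRT20, 1.65 and 1.75 CPM, lay near that of untreated cells, and the scramble level, 11.6 and 10.3 CPM, lay within that at 24 h. The difference between states was -2.54 (adjusted p 2.64e-04) and -2.12 (adjusted p 4.51e-05). PRSS36 was at 1.81 to 3.36 CPM against 2.94 to 4.15 CPM in untreated cells and at 9.83 to 10.8 CPM against 12.8 to 15.2 CPM at 24 h, before it was lower at 48 h (difference -2.70 and -2.55).

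LAMA3, PPP1R15A and DDIT3 were called lower at 48 h. LAMA3 was at 22.4 to 25.7 CPM against 24.5 to 29.8 CPM in untreated cells and at 133 to 146 CPM against 142 to 145 CPM at 24 h. Its difference between states was -0.97 (adjusted p 1.10e-04) and -0.84 (adjusted p 9.97e-05). PPP1R15A was at 33.2 to 36.9 CPM against 30.8 to 33.7 CPM in untreated cells and at 48.0 to 51.4 CPM against 48.2 to 54.7 CPM at 24 h, with differences of -0.65 (adjusted p 0.0039) and -0.84 (adjusted p 1.45e-04). DDIT3 was at 5.29 to 6.47 CPM against 7.37 to 8.54 CPM in untreated cells and at 7.07 to 8.61 CPM against 8.23 to 11.5 CPM at 24 h, with neither earlier difference called. Its difference between states was -1.22 (adjusted p 0.0030) and -1.12 (adjusted p 0.0020). These 6 genes kept the calls of their differences under every alternative run.

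**Figure D4:**
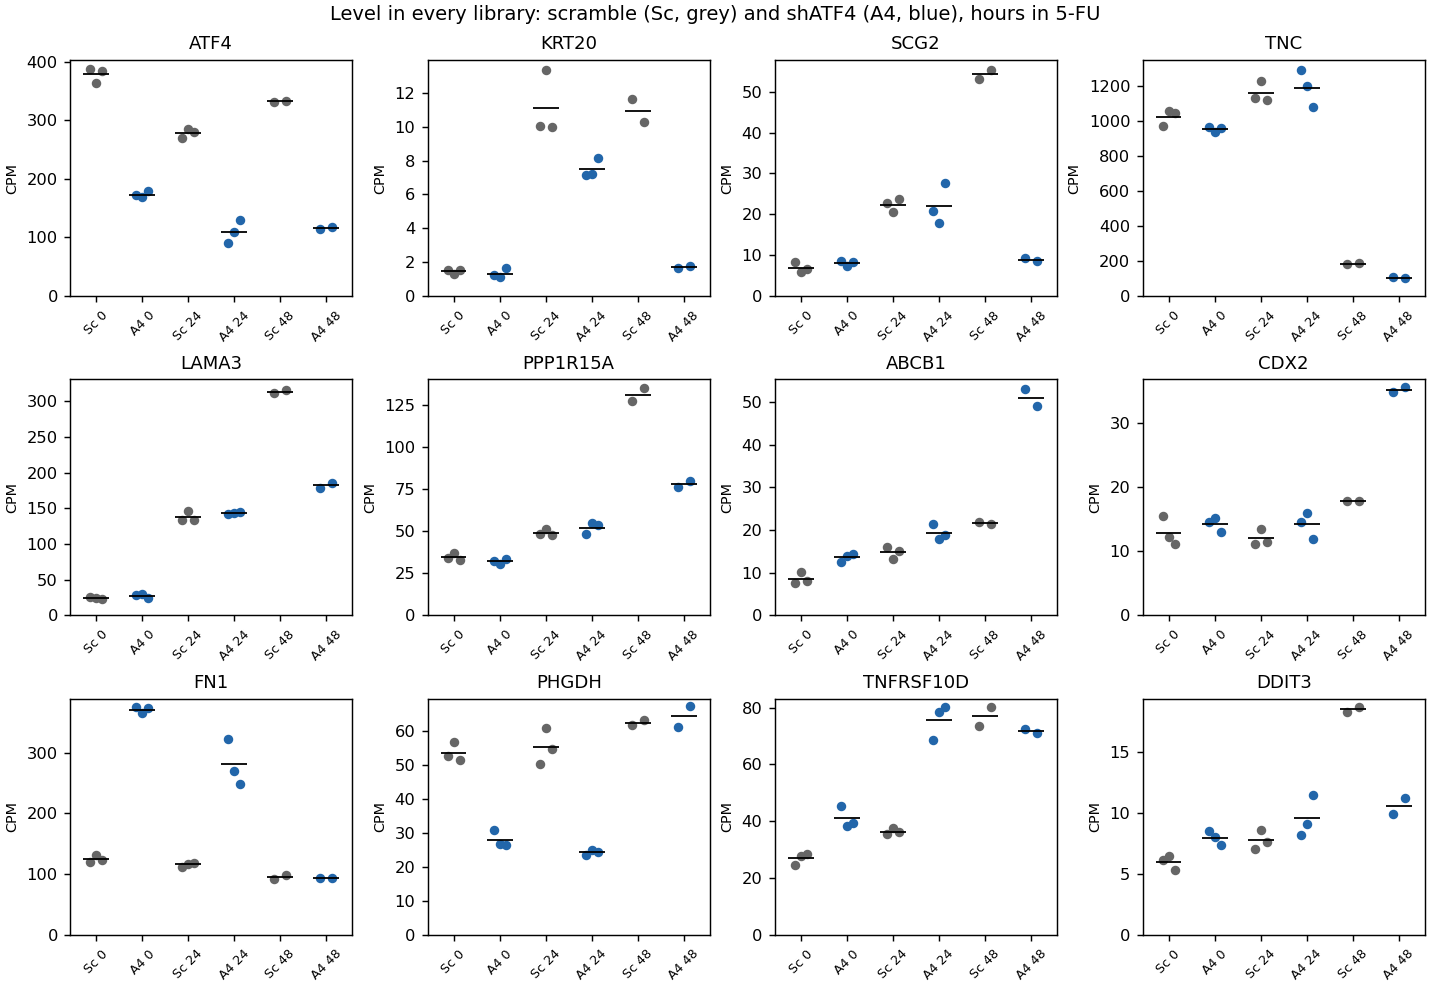
Level in CPM of 12 genes in each of the 16 libraries, by line (Sc, scramble, grey; A4, shATF4, blue) and by hours in 5-FU (0 for untreated), with a line at the group mean. At 48 h the scramble libraries of SCG2, TNC, LAMA3 and PPP1R15A are above both shATF4 libraries, ABCB1 and CDX2 are below them, and the FN1 and PHGDH values of the lines meet.

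Calls were also counted by chromosome. On chromosome 13, 37 of 318 tested genes were lower in shATF4 cells at 48 h (11.6%, against 5.53% over all genes) and 7 were higher (2.20%), with a median change of -0.08. The median there was -0.06 at 24 h and -0.02 in untreated cells. On the X chromosome 6.83% of 542 genes were higher, against 3.92% over all genes. On no other chromosome with at least 100 tested genes did the share lower exceed 6.90%. The part of copy number in these shares was not tested.

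**Figure D5:**
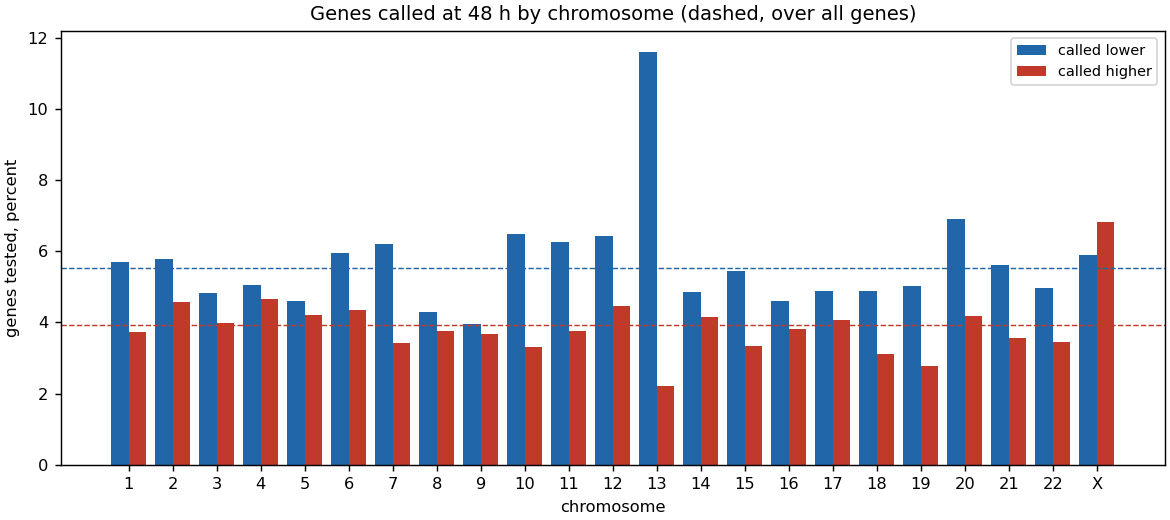
Percent of tested genes called lower (blue) and higher (red) in shATF4 cells at 48 h by chromosome, for chromosomes with at least 100 tested genes, with dashed lines at the shares over all genes. Chromosome 13 has the tallest blue bar, at 11.6%.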

How the data were processed

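RNA of 16 SW620 libraries was sequenced, and the authors counted reads per gene with featureCounts 1.5.0-p3, per the submitters' processing notes. The deposited counts are whole numbers and not normalized; neither the strand setting nor the aligner's role is stated in them. The authors' deposited table also holds log2 fold changes and adjusted p-values, used only where named. Low-count genes were removed with edgeR 4.0.16 (filterByExpr, R 4.3.3), which kept 99.9% of counts; libraries were scaled by TMM and fitted as 6 groups with 10 residual degrees of freedom. Named genes were ATF4 and a short list of genes of interest, the 12 largest protein-coding changes per direction at 48 h (mean of at least 1 CPM, no overlap), 3 of other biotypes per direction, up to 5 called members of each list, and 6 per direction for each difference between states. Genes, lists and rule were chosen with earlier results of these data known. Other scalings and filters, DESeq2 1.42.0, the 4 libraries alone, the replicate number as a block and left-out libraries were alternatives. The fit was tested on data simulated from its own dispersions, with no library standing apart and with changes set in genes of at least 1 CPM. It recovered 67.2% of 1.5-fold, 67.2% of 2-fold and 95.5% of 4-fold changes, with 9 false calls among 17309 genes run. Some genes are not reported here.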

Additional observations from a re-analysis of the deposited data

Results flagged for a closer look

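The difference between the lines changed with the state of the cells, by its own test in edgeR (adjusted p under 0.05), in the 55 named genes listed for untreated cells and in 11 genes named for the size of their difference from 24 h. Over all tested genes, 2.74% passed against untreated cells and 8.56% against 24 h. Many genes were named for a large change at 48 h or for passing these differences. The counts among named genes are therefore partly set by that choice. Values are the log2 change at 48 h minus that in the other state, so a positive value means a change further toward higher levels in shATF4 cells at 48 h. Against untreated cells, the change was higher in BOLA2B at 5.61, SEMA3C at 1.88, CHODL at 1.87, DUSP9 at 1.74, SELENOM at 1.72, TMEM159 at 1.64, OR2I1P at 1.57 and LINC01315 at 1.29. Smaller positive differences were in TSHZ1 at 1.27, RPL3P4 at 0.995, PHGDH at 0.98, PIR at 0.90, CDX2 at 0.83, RPL3 at 0.65 and AC004656.1 at 0.61. Further positive differences were in EGLN1 at 0.61, GPX4 at 0.54, GPX2 at 0.53, SHMT1 at 0.47, HLA-C at 0.45, SHMT2 at 0.44, LSS at 0.44 and VIL1 at 0.44. Also higher were QARS at 0.40 and PDIA4 at 0.35.

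Against untreated cells, the change was lower in CYP11A1 at -3.33, SCEL at -3.23, AC004233.2 at -3.14, F13A1 at -2.99, SCG2 at -2.82, PRSS36 at -2.70, CACNA1E at -2.55 and KRT20 at -2.54. Negative differences of less size were in KRT81 at -2.21, SMN1 at -1.91, KLK10 at -1.87, FN1 at -1.60, CEACAM6 at -1.48, GAS6-DT at -1.47, DDIT3 at -1.22 and TFF2 at -1.19. Further negative differences were in SLC14A1 at -1.14, SLC6A9 at -1.06, LINC02404 at -0.99, LAMA3 at -0.97, TNC at -0.73 and LINC00649 at -0.73. Also lower were LAMB3 at -0.72, TNFRSF10D at -0.71, CDH1 at -0.69, PPP1R15A at -0.65, KLF6 at -0.51, BCL2L1 at -0.51, SLC2A1 at -0.46 and KRT19 at -0.40.

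Of the 158 named genes, 65 passed the test against 24 h, where 8.56% of all tested genes did. Only those named for that difference are listed. Some others, such as FN1, PHGDH, TNFRSF10D, LAMA3, PPP1R15A and DDIT3, have their values in the results. Among the listed genes the change against 24 h was higher in DSEL at 2.77, PLIN5 at 2.44, TSHZ1 at 2.35, YPEL1 at 2.32 and RFX8 at 2.19. It was lower in F13A1 at -2.61, GAST at -2.60, SCG2 at -2.59, PRSS36 at -2.55, SMN1 at -2.46 and KRT20 at -2.12. BOLA2B and SMN1 have near-identical copies, and the BOLA2B value rests on a lone library (shATF4 48 h library 1). PLIN5 had 3 and 2 counts in the untreated groups, which do not enter its value against 24 h. Of the 66 differences, 30 passed under every alternative. Without scramble 48 h library 1, 28 no longer passed, without scramble 48 h library 2, 34, without shATF4 48 h library 1, 21, and without shATF4 48 h library 2, 27. Leaving out a library of the other states also ended calls, up to 18 without untreated scramble library 1 or untreated shATF4 library 2. The SCEL value against untreated cells was -1.58 (adjusted p 0.57) without untreated shATF4 library 1, and was -3.88 without untreated scramble library 2. It was also lost without untreated scramble library 1 or 3 or any 1 of the 4 libraries at 48 h. CYP11A1 was at -4.82 without untreated scramble library 2 and had an adjusted p of 0.12 without untreated shATF4 library 1. CHODL was at 1.26 (adjusted p 0.21) without scramble 48 h library 1 and 2.96 without scramble 48 h library 2. SEMA3C was at 1.22 (0.19) and AC004233.2 at -2.54 (0.075) without shATF4 48 h library 1, and AC004233.2 at -4.15 without shATF4 48 h library 2. BOLA2B was at 0.26 (0.96) without shATF4 48 h library 1 and 6.597 without shATF4 48 h library 2. Against 24 h, DSEL was at 2.16 (0.061) without scramble 48 h library 1 and 3.98 without scramble 48 h library 2, and RFX8 at 2.89 without shATF4 24 h library 3.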

How the results depend on the processing

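The count of genes called at 48 h was within 1.5 times 1636 under other scalings, filters, DESeq2 and the replicate block, and was 2748 when only the 4 libraries at 48 h were fitted, a fit with fewer samples. Leaving out libraries in turn gave 600 to 2463 calls at 48 h, 2067 to 3885 at 24 h, 277 to 774 in untreated cells, 136 to 991 for the difference between 48 h and untreated cells and 592 to 2006 for that between 48 h and 24 h. Without the 2 libraries that stood apart the counts were 3021 at 48 h, 891 in untreated cells, 1204 and 2441 for those differences; the cause was not tested. The ATF4 change stayed between -1.54 and -1.48 with libraries left out. The value of BOLA2B was -1.13 without shATF4 48 h library 1 and 5.21 without shATF4 48 h library 2. With the replicate block, 1967 genes were called at 48 h, 3973 at 24 h, 591 in untreated cells, and 669 and 1878 for the differences, and 1 of 137 named calls was lost (PRSS35). Whether the numbers pair the libraries was not settled, because same-numbered and different-numbered libraries gave overlapping values. In their deviations from group means, same-numbered libraries correlated at -0.08 to 0.12 (mean 0.02). Different-numbered libraries correlated at -0.12 to 0.10 (mean -0.01), and 7 of 16 libraries correlated best with their own number. Fits on the 4 libraries alone give values for the 48 h comparison only. With 2 libraries per group, genes at low levels have wide errors.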
